A study of Mus musculus with 4 samples.

Results

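The genes described here are the heat shock proteins and DnaJ cochaperones of mouse pre-B cells, which are B lymphocyte precursors in the bone marrow. Of 23284 gene symbols measured, 74 begin with Hsp or Dnaj (Hspg2, a matrix proteoglycan, set aside), and the 61 that reached 1 FPKM in at least 1 of 4 libraries were kept as members. FPKM is a read count scaled to transcript length and library size, so levels can be set side by side between genes. The members comprised 8 inducible cytosolic genes, 12 constitutive cytosolic ones and 17 further cytosolic or nuclear DnaJ genes. The rest were 13 genes of the endoplasmic reticulum (ER), 8 mitochondrial ones and 3 not placed. Members were taken by symbol, so the constitutive group includes Hspb11, which encodes an intraflagellar transport subunit, and Hspbap1, which encodes a JmjC protein. The other 13 symbols stayed below 1 FPKM, among them the small heat shock protein gene Hspb8. Just outside the limit lay Hspb9, at most 0.790 FPKM, and Hspa12a, at most 0.722 FPKM, and just inside it lay Dnajb7, at most 1.12 FPKM, and Dnajb14, at most 1.33 FPKM.

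RNA-seq was available for 1 library in each of 4 groups of C57BL/6J mice, and the study asked how the adaptor protein STAP-2 bears on B cell formation. The groups were STAP-2 knockout marrow 1 month after transplantation (KO), wild-type marrow 1 month after transplantation (transplanted WT), STAP-2 transgenic marrow at steady state (Tg) and wild-type marrow at steady state (steady-state WT). The labels do not give the promoter of the transgene, the deleted part of the knockout, the age of the mice, the host, its conditioning or the number of animals pooled. The library titles carry 1 code for both transplanted libraries and another for both steady-state libraries, so transplantation and whatever that code marks cannot be told apart. With 1 library a group no difference has a replicate check. No p-value is given, and the 95% intervals beside ratios cover counting error only.

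Heat shock proteins are ATP-driven or ATP-independent chaperones that keep other proteins folded. HSP70 proteins bind unfolded stretches, DnaJ proteins (the HSP40 class) bring clients to them and trigger their ATPase, exchange factors release them, and HSP90 proteins finish a narrower set of clients such as kinases and receptors. Heat or proteotoxic stress activates the transcription factor HSF1, which drives the inducible cytosolic genes, whereas misfolding in the ER drives the ER chaperones through a separate response that plasma cells use heavily.

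The libraries held an estimated 7270000 to 8700000 reads. Stap2 was at 0.179 FPKM (2 reads) in the KO library and 0 in the transplanted WT library, and at 0.536 FPKM (5 reads) in the Tg library and 0.212 FPKM (2 reads) in the steady-state WT library, so at this depth it checks no label, and every direction below rests on the labels. All 13 pre-B markers were read in every library, with summed levels of 7839 to 8698 FPKM, while 9 T and NK cell markers summed to 3.15 to 3.997 FPKM, with Ncr1 at 0 in the KO, transplanted WT and Tg libraries. Markers of neutrophils were present in every library and are given below beside the results they move with.

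The sequences that matter most are the stretches upstream of the inducible HSP70 genes, which had the largest differences among the members, and, for contrast, those of a mitochondrial and an ER chaperone gene. All are the 250 bases before the RefSeq start in GRCm38.p6, read 5′ to 3′ on the gene's strand. Hspa1a lies on chromosome 17, with its upstream stretch at chr17:34972157-34972406 on the minus strand, between its own start and that of the divergent Hspa1l. The stretch of Hspa1b is chr17:34959239-34959488, also on the minus strand. Capitals mark a heat shock element of 2 units, a short form of the site type bound by HSF1 that 17% of genes have.
Hspa1a: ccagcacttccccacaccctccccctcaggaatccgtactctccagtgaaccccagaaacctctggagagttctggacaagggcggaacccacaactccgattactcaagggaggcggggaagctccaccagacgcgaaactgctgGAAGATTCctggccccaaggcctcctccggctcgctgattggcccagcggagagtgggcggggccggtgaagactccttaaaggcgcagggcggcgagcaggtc
Hspa1b: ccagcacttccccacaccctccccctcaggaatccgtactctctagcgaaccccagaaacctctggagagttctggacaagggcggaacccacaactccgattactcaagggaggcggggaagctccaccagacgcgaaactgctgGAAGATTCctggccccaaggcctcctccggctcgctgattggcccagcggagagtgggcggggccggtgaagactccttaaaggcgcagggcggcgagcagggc
Both capitals begin at position -104 from the start, and 3 of the 250 bases differ between the copies. The coding sequences differ in 11 of 1926 aligned columns, an identity of 99.4%, against 74.1% between Hspa1a and the constitutive Hspa8. Of all 50-base windows of the Hspa1a transcript 58.8% also occur in Hspa1b and 0% in Hspa8, so a read of that length could often not be placed between the copies but could be told from Hspa8. Values of Hspa1a and Hspa1b are therefore uncertain taken singly, and their sum is given as well.

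Hspe1, which encodes the mitochondrial cochaperonin HSP10, has its upstream stretch at chr1:55087898-55088147 on the plus strand, and it shares a start region with Hspd1 on the other strand (285 bases of their windows are in common). Capitals mark alternating heat shock units from position -89. Hspa5, which encodes the ER HSP70 protein BiP, has its stretch at chr2:34771840-34772089 on the plus strand, and capitals mark an ER stress element at position -65.
Hspe1: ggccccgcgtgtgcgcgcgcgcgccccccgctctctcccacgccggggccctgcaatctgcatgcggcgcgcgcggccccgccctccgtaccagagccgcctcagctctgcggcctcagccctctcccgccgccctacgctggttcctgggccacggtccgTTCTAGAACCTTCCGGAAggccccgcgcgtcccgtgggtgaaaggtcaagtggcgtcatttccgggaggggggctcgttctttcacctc
Hspa5: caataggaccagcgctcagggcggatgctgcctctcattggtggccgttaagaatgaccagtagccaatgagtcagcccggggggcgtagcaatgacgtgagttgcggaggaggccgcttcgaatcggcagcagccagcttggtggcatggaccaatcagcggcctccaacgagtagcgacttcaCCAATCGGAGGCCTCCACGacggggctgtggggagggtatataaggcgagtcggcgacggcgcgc
Motifs were searched on both strands in windows of 300 bases, 250 before and 50 after the start, which 50 members had. The heat shock element of 3 units (GAANNTTCNNGAA or TTCNNGAANNTTC) was found for 4 of these members, Dnajb6, Hspd1, Hspe1 and Hsph1, or 8%, against 0.662% of 27025 genes. The form of 2 units (GAANNTTC or TTCNNGAA), which also lies inside every 3-unit element, was found for 12 members or 24%, against 17% of genes, and the ER stress element (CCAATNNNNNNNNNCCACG) for Dnajc3, Hsp90b1 and Hspa5 or 6%, against 0.137%. A match is a run of letters and not a shown binding site.

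The members spanned a wide range of levels, and 4 genes, none of them in the inducible group, carried most of the chaperone message. Together the members made up 0.788% of all summed FPKM in the KO library, 0.803% in the transplanted WT library, 0.699% in the Tg library and 0.716% in the steady-state WT library. The 4 highest genes held 54.7% to 56.5% of that sum in each library: Hspa8 and Hsp90ab1, the constitutive cytosolic HSP70 and HSP90 genes, Dnajc7, a cochaperone that binds HSP70 and HSP90, and Hsp90b1, the ER HSP90 gene GRP94. Hspa8 had rank 98 and Dnajc7 rank 149 among all genes by mean level. The inducible pair was low by comparison, with 1.50% of the sum of Hspa1a, Hspa1b and Hspa8 in the KO library, 5.71% in the transplanted WT library, 2.96% in the Tg library and 1.73% in the steady-state WT library.

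**Figure D1:**
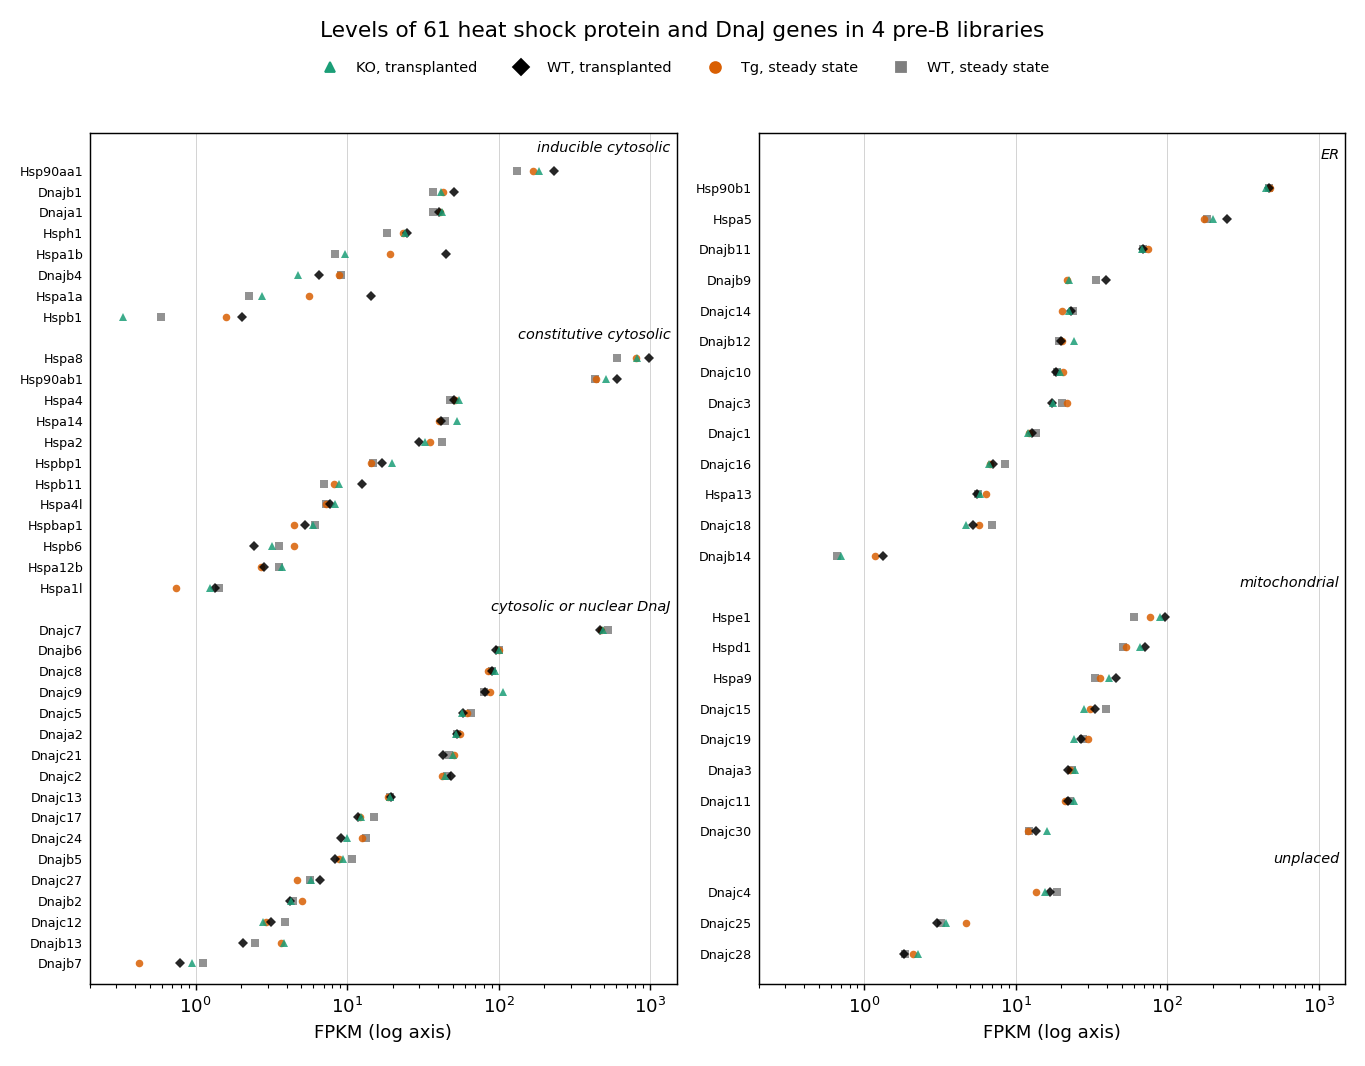
Level of each of the 61 members in the 4 libraries (FPKM, log axis), grouped by compartment and ordered by mean level, with 1 symbol per library. For most genes the 4 symbols lie close together, while Hspa1b, Hspa1a and Hspb1 spread widely, with the transplanted WT library highest.

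The range over the 4 libraries on log2(FPKM + 1), highest minus lowest, had a median of 0.39 over the members and 0.31 over all 11053 genes at 1 FPKM or more, and was 1 or more (2-fold) for 3 of 61 members, 4.92%, against 5.37% of all genes. It was under 0.25 for 21 of 61 members, 34.4%, against 36.5% of all genes. The members with the largest ranges were Hspa1b at 2.30, Hspa1a at 2.24 and Hspb1 at 1.19, all inducible cytosolic genes. The smallest range was that of Dnajc13, an endosomal DnaJ protein, which lay between 18.7 and 19.4 FPKM. The next was that of Dnajb6, a DnaJ protein that holds back aggregation, at 100.6 FPKM in the KO library, 96.9 FPKM in the transplanted WT library and 100.1 FPKM in both the Tg and the steady-state WT library.

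In the KO library, set against the transplanted WT library, the inducible HSP70 genes Hspa1a and Hspa1b and the small heat shock protein gene Hspb1 were at least 2-fold lower on log2(FPKM + 1), and no member was 2-fold higher. That is 3 of 60 members at 1 FPKM or more in either library, where 1.18% of 10790 genes were 2-fold lower and 0.667% 2-fold higher. Of these 3, Hspa1a and Hspa1b are near-identical copies, and Hspb1 had about 2 against 11 reads, so the count carries little. Counting all genes, 72 were 2-fold higher and 127 lower, and with each library rescaled to the same FPKM sum 117 were higher and 105 lower. Over all members the median difference was -0.02, against -0.03 over all genes, with 28 members and 44.0% of all genes higher and 32 members lower. Rescaling to the same sum turned the median to 0.08 (all genes 0.06), with 38 members higher and 22 lower. In bulk RNA, fewer cells of a type that expresses a gene and less RNA per cell cannot be told apart.

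In the Tg library, set against the steady-state WT library, the same pair of HSP70 copies, Hspa1a and Hspa1b, was at least 2-fold higher and no member was 2-fold lower. The count of 2 of 61 members is made up of near-identical copies and stands beside 1.22% of 10843 genes that were 2-fold higher and 0.682% that were 2-fold lower. The median over the members was 0.00061, against -0.02 over all genes, with 31 members and 46.7% of all genes higher and 30 members lower. Rescaling to the same sum gave a median of -0.12 (all genes -0.13), with 20 members higher and 41 lower. That rescaling also put both copies just under 2-fold (a difference of 1), at 0.92 for Hspa1a and 0.997 for Hspa1b.

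Transplanted WT against steady-state WT gave the largest differences of the pair. Hspa1a and Hspa1b were again the members past 2-fold, both higher, among 61 tested, where 1.67% of 10835 genes were 2-fold higher and 0.628% 2-fold lower. This comparison shares a library with each of the genotype comparisons, so the 3 sets of values are not independent.

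**Figure D2:**
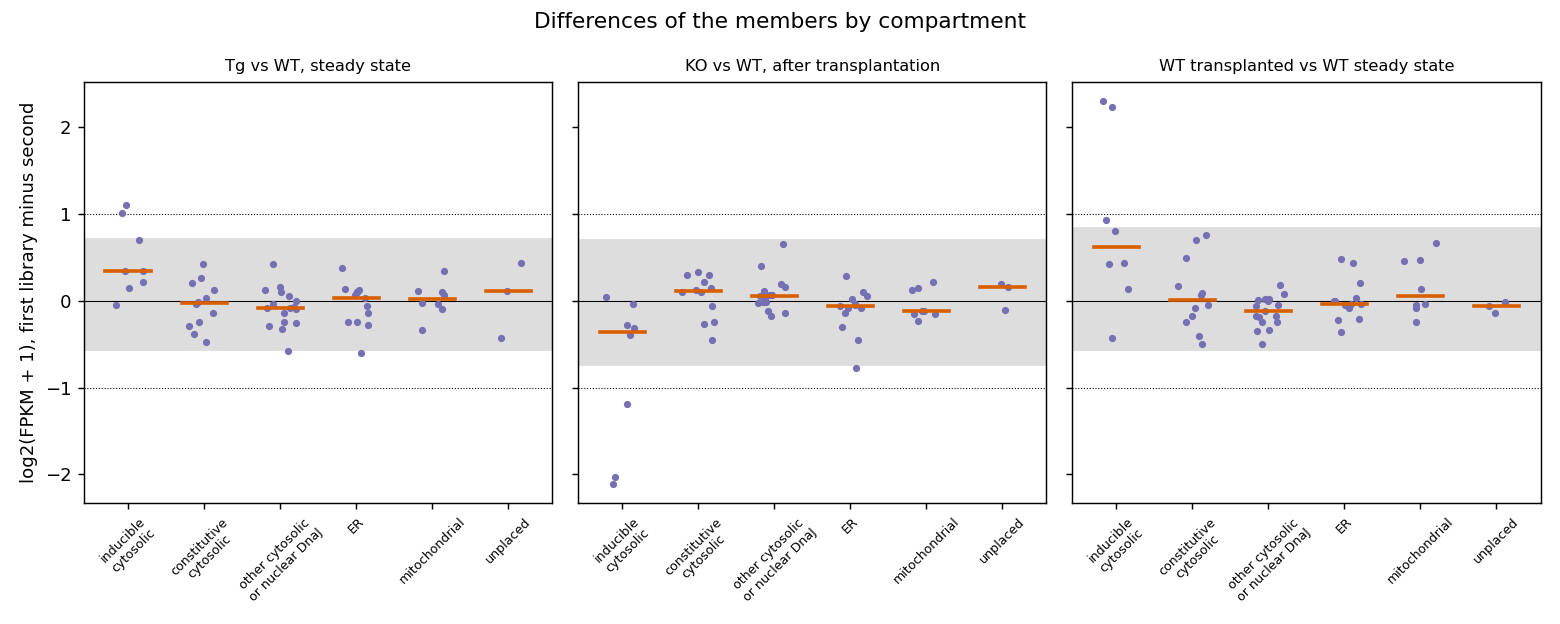
Difference of each member on log2(FPKM + 1), first library minus second, in 3 comparisons and by compartment; each point is a gene, orange bars are medians, dotted lines mark 2-fold and the grey band holds the central 95% of all genes tested. The inducible cytosolic genes have medians of 0.35 (Tg), -0.36 (KO) and 0.62 (transplanted WT), while the medians of the ER and mitochondrial genes lie between -0.12 and 0.05.

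The inducible cytosolic group was set by known roles, as genes that HSF1 can turn on under stress. HSF1 activity was not measured. Hspa1a was at 2.75 FPKM (66 estimated reads) in the KO library against 14.4 FPKM (308 reads) in the transplanted WT library, and at 5.58 FPKM (112 reads) in the Tg library against 2.26 FPKM (46 reads) in the steady-state WT library. Hspa1b was at 9.73 FPKM in the KO library against 45.2 FPKM in the transplanted WT library, and at 19.2 FPKM in the Tg library against 8.39 FPKM in the steady-state WT library. The transplanted WT library thus stood highest for both copies and the KO and steady-state WT libraries lowest. Summed, the pair was 4.78-fold (4.21 to 5.47) lower in the KO library than in the transplanted WT library, 2.33-fold (1.97 to 2.75) higher in the Tg library than in the steady-state WT library, and 5.60-fold (4.82 to 6.51) higher in transplanted than in steady-state WT. Hspa1a made up 21.3% to 24.1% of the sum in every library, so the sum was split in nearly the same proportion throughout. Like changes of the copies between libraries cannot be told apart from reads divided between them. Hspa1a spans chr17:34969190-34972156 and Hspa1b chr17:34956436-34959238, both on the minus strand (GENCODE M21, GRCm38).

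Hspb1, at chr5:135887919-135889563, encodes the small heat shock protein HSP25 and was barely detected. It was at 0.331 FPKM in the KO library against 2.04 FPKM in the transplanted WT library, about 2 against 11 reads, a ratio of 0.162 with an interval of 0.0175 to 0.744. In the Tg library it was at 1.58 FPKM against 0.589 FPKM in the steady-state WT library, 8 against 3 reads, and the interval of that ratio, 0.646 to 15.7, includes 1. Its order of libraries resembled that of the HSP70 pair, at a depth that carries little.

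Hsp90aa1, the stress-responsive cytosolic HSP90 gene, was the highest of the inducible genes, and its differences ran the same way but were smaller. It was at 186 FPKM in the KO library against 232 FPKM in the transplanted WT library, 1.25-fold (1.20 to 1.30) lower, and at 169 FPKM in the Tg library against 132 FPKM in the steady-state WT library, 1.28-fold (1.22 to 1.34) higher. Transplanted WT was 1.75-fold (1.68 to 1.83) above steady-state WT. As a share of the cytosolic HSP90 message, Hsp90aa1 and Hsp90ab1 together, it made up 26.6% in the KO library against 27.5% in the transplanted WT library, and 27.6% in the Tg library against 23.5% in the steady-state WT library. That share was therefore nearly level across 3 libraries and lower in steady-state WT.

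The cytosolic DnaJ partners of HSP70 and the exchange factor HSP110 had differences of a similar or smaller size. Dnajb1, the classical HSP40 gene, was at 41.6 FPKM in the KO library against 50.5 FPKM in the transplanted WT library, and at 43.2 FPKM in the Tg library against 37.0 FPKM in the steady-state WT library, 1.17-fold (1.06 to 1.29) higher. Hsph1, which encodes the HSP110 exchange factor that recharges HSP70, was at 24.3 FPKM in the KO library against 25.0 FPKM in the transplanted WT library, a ratio of 0.971 (0.867 to 1.09) that is above 1 after rescaling to the same sum. It was at 23.6 FPKM in the Tg library against 18.4 FPKM in the steady-state WT library, 1.29-fold (1.13 to 1.47) higher. Dnaja1, a class A DnaJ gene, was at 42.1 FPKM in the KO library against 40.7 FPKM in the transplanted WT library, and at 41.1 FPKM in the Tg library against 36.9 FPKM in the steady-state WT library. For Hsph1 and Dnaja1 the KO library was thus as high as the transplanted WT library within counting error, unlike the HSP70 pair.

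Dnajb4, a further class B DnaJ gene chosen after its values were seen, had another order. It was at 4.72 FPKM in the KO library against 6.53 FPKM in the transplanted WT library, a ratio of 0.724 (0.541 to 0.957), and at 8.80 FPKM in the Tg library against 9.14 FPKM in the steady-state WT library, a ratio of 0.963 (0.760 to 1.22). Both steady-state libraries were above both transplanted ones. Of the 8 inducible genes 7 were lower in the KO library (6 after rescaling to the same sum), 7 were higher in the Tg library and 7 were higher in transplanted than in steady-state WT, the last 2 counts under every scaling tried. Over all genes, 44.0% were higher in the KO library, 46.7% in the Tg library and 45.9% in transplanted than in steady-state WT. Transplanted WT held the highest value of 6 of the 8 and steady-state WT the lowest of 6. Over all genes these shares were 26.5% and 22.5%. Hspa1a and Hspa1b, between which reads may be divided, make up 2 of the 8 in each of these counts.

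**Figure D3:**
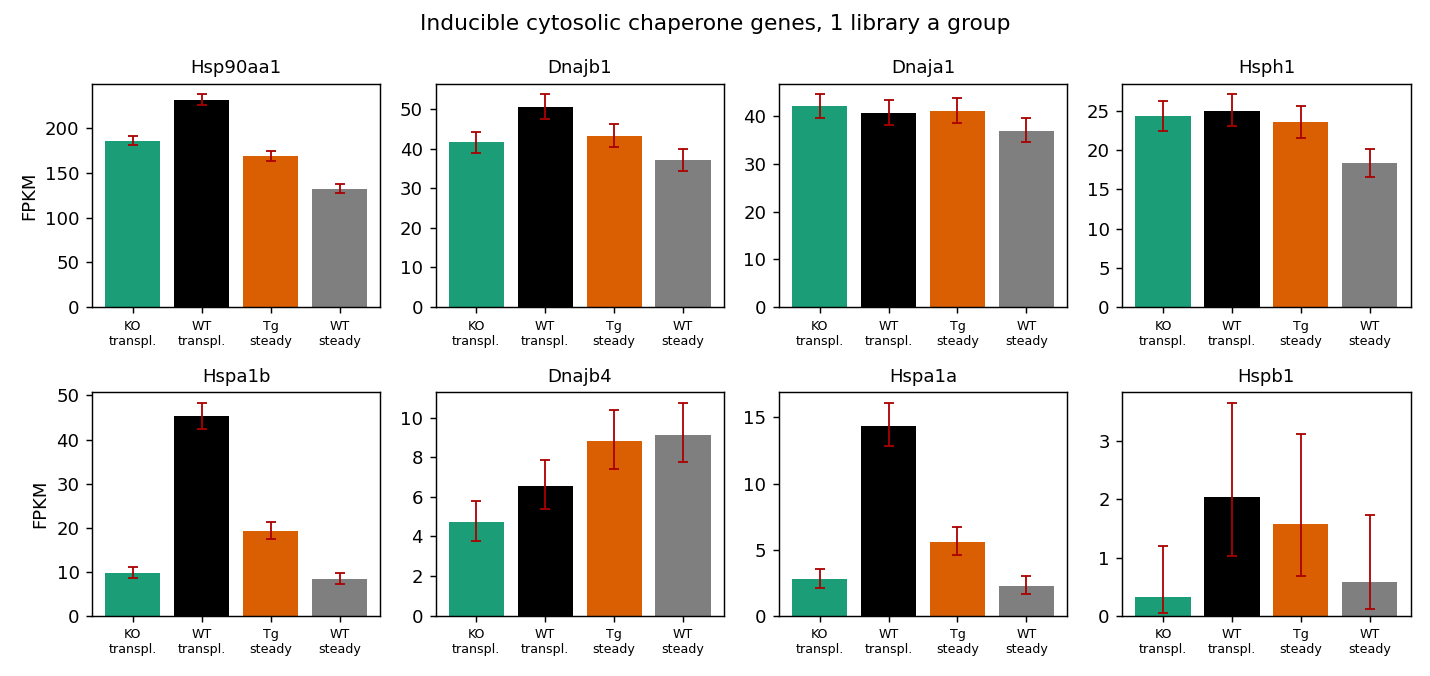
Level of each inducible cytosolic member in the 4 libraries (FPKM, linear axes from 0, 1 library a group); error bars are 95% counting intervals from estimated reads. The transplanted WT bar is far above the others for Hspa1a and Hspa1b (14.4 and 45.2 FPKM), while Dnaja1 lies between 36.9 and 42.1 FPKM in all 4 libraries.

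Among the constitutive cytosolic genes, the high-level chaperones Hspa8 and Hsp90ab1 were highest in transplanted WT, and none of the 12 genes passed 2-fold in any comparison. Hspa8, which encodes HSC70, the HSP70 protein of unstressed cells, was at 820 FPKM in the KO library against 985 FPKM in the transplanted WT library, 1.20-fold (1.17 to 1.23) lower. It was at 813 FPKM in the Tg library against 606 FPKM in the steady-state WT library, 1.34-fold (1.30 to 1.38) higher. In FPKM the gap between the WT libraries for Hspa8 alone exceeded the level of every inducible gene. Hsp90ab1 was at 514 FPKM in the KO library against 610 FPKM in the transplanted WT library, 1.19-fold (1.16 to 1.22) lower. The gene was at 443 FPKM in the Tg library against 432 FPKM in the steady-state WT library, a ratio of 1.03 (0.993 to 1.06) that is below 1 after rescaling to the same sum. So the Tg library was above steady-state WT for Hspa8 and about level with it for Hsp90ab1.

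Hspa4, an exchange factor of HSP70 and a relative of Hsph1, was at 54.5 FPKM in the KO library against 50.7 FPKM in the transplanted WT library, a ratio of 1.07 (1.01 to 1.15), and at 51.8 FPKM in the Tg library against 47.5 FPKM in the steady-state WT library, a ratio of 1.09 (1.02 to 1.17). Hspa14, which encodes a ribosome-associated HSP70 relative and was chosen after its values were seen, was at 53.2 FPKM in the KO library against 42.0 FPKM in the transplanted WT library, 1.27-fold (1.13 to 1.42) higher. It was at 40.3 FPKM in the Tg library against 44.6 FPKM in the steady-state WT library. Some Hspa14 exon bases also belong to Gm45902 on the same strand, so its level is uncertain. Hspa2, an HSP70 gene best known from testis and likewise chosen after its values were seen, was at 32.5 FPKM in the KO library against 29.7 FPKM in the transplanted WT library, and at 35.4 FPKM in the Tg library against 42.1 FPKM in the steady-state WT library. Its lowest value was therefore in the library where Hspa1b was highest. At these levels Hspa2 exceeded each of the inducible HSP70 copies in the KO, Tg and steady-state WT libraries, and in transplanted WT it was below Hspa1b. Of the 12 constitutive genes 8 were higher and 4 lower in the KO library, and 5 were higher and 7 lower in the Tg library, with medians of 0.12 and -0.02 (0.22 and -0.13 after rescaling to the same sum).

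The 17 further cytosolic or nuclear DnaJ genes, which send HSP70 to particular tasks, had no member past 2-fold, and their summed level was 1064 FPKM in the KO library, 1004 FPKM in the transplanted WT library, 1032 FPKM in the Tg library and 1084 FPKM in the steady-state WT library. Dnajc7 was at 488 FPKM in the KO library against 466 FPKM in the transplanted WT library, a ratio of 1.05 (1.02 to 1.08), and at 478 FPKM in the Tg library against 526 FPKM in the steady-state WT library, a ratio of 0.909 (0.881 to 0.939). Some of its exon bases also belong to Cnp and Nkiras2 on the other strand, and whether the counting used strand is not given, so its high level is uncertain. Dnajc8, a DnaJ protein of the splicing machinery, lay between 85.7 and 95.3 FPKM in all 4 libraries.

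Dnajc9, a cochaperone of histones H3 and H4 that was chosen after its values were seen, was highest in the KO library, at 107.6 FPKM against 81.4 FPKM in the transplanted WT library, 1.32-fold (1.21 to 1.44) higher. In the Tg library it was at 87.9 FPKM against 80.2 FPKM in the steady-state WT library, a ratio of 1.10 (0.996 to 1.20). Dnajb13, a low gene chosen in the same way that shares exon bases with Ucp2 on the other strand, was at 3.82 FPKM in the KO library against 2.07 FPKM in the transplanted WT library, 1.84-fold (1.25 to 2.81) higher. It was at 3.68 FPKM in the Tg library against 2.48 FPKM in the steady-state WT library. Of the DnaJ group 10 of 16 were higher in the KO library and 6 of 17 in the Tg library, with medians of 0.06 and -0.08. After rescaling to the same sum the counts were 13 of 16 and 3 of 17, with medians of 0.16 and -0.19. Over all genes the medians after that rescaling were 0.06 and -0.13, so part of this move is shared by all genes.

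Among the ER chaperones Hsp90b1 and Dnajb11 were close to level between the libraries, while Dnajb9 and the low gene Dnajb14 differed more, and no ER member passed 2-fold on log2(FPKM + 1). Hsp90b1, the ER HSP90 gene, was at 448 FPKM in the KO library against 468 FPKM in the transplanted WT library, and at 477 FPKM in the Tg library against 467 FPKM in the steady-state WT library, with ratios of 0.957 (0.931 to 0.985) and 1.02 (0.991 to 1.05) that both cross 1 after rescaling to the same sum. Hspa5, whose upstream stretch with its ER stress element is printed above, was at 200.5 FPKM in the KO library against 248 FPKM in the transplanted WT library, 1.24-fold (1.19 to 1.29) lower. The Hspa5 level was 176 FPKM in the Tg library against 182 FPKM in the steady-state WT library, a ratio of 0.963 (0.916 to 1.01). Dnajb11, the ER-lumen DnaJ protein ERdj3 that serves BiP, lay between 67.8 and 74.5 FPKM throughout. Of these 3 genes Hspa5 differed most, with transplanted WT 1.36-fold (1.30 to 1.42) above steady-state WT.

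Dnajb9 encodes ERdj4, a DnaJ protein of the ER lumen made in response to unfolded protein there, and was chosen after its values were seen. It was at 22.4 FPKM (438 reads) in the KO library against 39.1 FPKM (683 reads) in the transplanted WT library, 1.75-fold (1.55 to 1.97) lower. In the Tg library it was at 21.8 FPKM (357 reads) against 33.7 FPKM (556 reads) in the steady-state WT library, 1.54-fold (1.35 to 1.77) lower. Dnajb9 was thus lower than WT in both genotype comparisons, at differences of -0.78 and -0.60 that do not reach 2-fold, whereas the HSP70 pair was lower than WT in KO and higher in Tg. Dnajb14, an ER-membrane DnaJ gene near the 1 FPKM limit and chosen in the same way, was at 0.700 FPKM in the KO library against 1.33 FPKM in the transplanted WT library, a ratio of 0.525 (0.368 to 0.731). It was at 1.17 FPKM in the Tg library against 0.664 FPKM in the steady-state WT library, a ratio of 1.76 (1.21 to 2.61). Of the 13 ER members 4 were higher and 9 lower in the KO library (9 higher and 4 lower after rescaling to the same sum), and 7 were higher and 6 lower in the Tg library (3 and 10 after rescaling). The same rescaling put the median of all genes at 0.06 in the KO comparison and -0.13 in the Tg comparison.

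The mitochondrial matrix chaperones Hspe1, Hspd1 and Hspa9 were highest in transplanted WT, and no mitochondrial member passed 2-fold. Hspe1, with the heat shock units printed above, was at 89.0 FPKM in the KO library against 96.9 FPKM in the transplanted WT library, a ratio of 0.918 (0.803 to 1.05). The level was 77.1 FPKM in the Tg library against 60.7 FPKM in the steady-state WT library, 1.27-fold (1.07 to 1.50) higher. Hspd1, its partner HSP60, was at 65.7 FPKM in the KO library against 71.4 FPKM in the transplanted WT library, and at 53.5 FPKM in the Tg library against 51.1 FPKM in the steady-state WT library, a ratio of 1.05 (0.951 to 1.15). Hspa9, the mitochondrial HSP70 mortalin, was at 41.3 FPKM in the KO library against 46.1 FPKM in the transplanted WT library, and at 36.2 FPKM in the Tg library against 33.4 FPKM in the steady-state WT library. All 3 thus had both transplanted libraries above both steady-state ones.

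Transplanted WT exceeded steady-state WT 1.60-fold (1.36 to 1.87) for Hspe1, 1.40-fold (1.28 to 1.53) for Hspd1 and 1.38-fold (1.25 to 1.53) for Hspa9. The annotation names 6 pseudogenes of Hspe1, 5 of Hspd1 and 1 of Hspa9, whose reads could be exchanged with the genes. Dnajc15, a DnaJ protein of the import machinery chosen after its values were seen, did not follow them, at 28.0 FPKM in the KO library against 33.1 FPKM in the transplanted WT library, and 31.0 FPKM in the Tg library against 39.4 FPKM in the steady-state WT library. The 8 mitochondrial members had medians of -0.12 in the KO comparison and 0.02 in the Tg comparison, and of -0.02 and -0.09 after rescaling to the same sum.

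Of the 3 members not placed in a compartment, Dnajc4 was at 15.5 FPKM in the KO library against 16.7 FPKM in the transplanted WT library, and at 13.5 FPKM in the Tg library against 18.6 FPKM in the steady-state WT library. Dnajc25 was at 3.48 FPKM in the KO library against 3.03 FPKM in the transplanted WT library, and at 4.67 FPKM in the Tg library against 3.20 FPKM in the steady-state WT library, 1.46-fold (1.11 to 1.93) higher. Some Dnajc25 exon bases also belong to Gm20503 on the same strand, so its level is uncertain. Dnajc28 lay between 1.84 and 2.25 FPKM throughout. None passed 2-fold.

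The wider chaperone network around the members had no gene past 2-fold in any of the 3 comparisons. It was read in lists of 29 genes for HSF1 and cytosolic cochaperones, 13 for the TRiC chaperonin and prefoldin, 12 for mitochondrial proteostasis and 17 for ER folding. Hsf1 itself was at 32.9 FPKM in the KO library against 37.0 FPKM in the transplanted WT library, and at 33.1 FPKM in the Tg library against 36.5 FPKM in the steady-state WT library, so it was near level. Bag3, an exchange factor gene that HSF1 drives in many cells and that was also chosen after its values were seen, was at 0.0482 FPKM in the KO library and 0.162 FPKM in the transplanted WT library, and at 0.288 FPKM in the Tg library and 0.229 FPKM in the steady-state WT library, too low to compare.

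Among the cochaperones, Ppp5c, a phosphatase that binds HSP90, was at 34.6 FPKM in the KO library against 40.1 FPKM in the transplanted WT library, and at 38.4 FPKM in the Tg library against 29.0 FPKM in the steady-state WT library, 1.32-fold (1.16 to 1.51) higher. Fkbp5, an HSP90-bound immunophilin, was at 11.3 FPKM in the KO library against 8.52 FPKM in the transplanted WT library, and at 11.8 FPKM in the Tg library against 9.23 FPKM in the steady-state WT library. The list's median difference was 0.01 in the KO comparison and 0.03 in the Tg comparison (0.11 and -0.09 after rescaling to the same sum), with 15 and 16 of 28 genes higher. The TRiC and prefoldin list had medians of 0.01 and 0.06 and the mitochondrial list -0.04 and 0.02, where rescaling to the same sum again flips the Tg values and that of the mitochondrial list in KO.

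In the ER folding list the lowest differences were those of Ero1lb and Ddit3 in KO and of Ddit3 and Sec63 in Tg. Ddit3, which encodes the transcription factor CHOP, was at 34.2 FPKM in the KO library against 45.1 FPKM in the transplanted WT library, a ratio of 0.758 (0.625 to 0.918), and at 23.0 FPKM in the Tg library against 38.5 FPKM in the steady-state WT library, a ratio of 0.598 (0.471 to 0.759). Ero1lb, an oxidase that supplies disulfide bonds in the ER, was at 48.8 FPKM in the KO library against 78.4 FPKM in the transplanted WT library, a ratio of 0.622 (0.585 to 0.662). Sec63, which encodes a DnaJ-domain protein of the ER translocon, was at 75.1 FPKM in the Tg library against 101 FPKM in the steady-state WT library, a ratio of 0.741 (0.707 to 0.776). Like Dnajb9, Ddit3 was lower than WT in both genotype comparisons. The list's median was -0.10 in the KO comparison and 0.12 in the Tg comparison, and rescaling to the same sum turned them to 0.0041 and -0.0027.

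Several other gene groups varied between the same libraries. The 12 neutrophil markers, all read in every library, summed to 657 FPKM in the KO library against 1709 FPKM in the transplanted WT library, and to 1845 FPKM in the Tg library against 772 FPKM in the steady-state WT library. They were thus low in the same 2 libraries as the HSP70 pair. Of these markers 11 of 12 were 2-fold lower in KO and 7 of 12 2-fold higher in Tg. All 12 were higher in transplanted than in steady-state WT, 8 of them 2-fold. The 10 monocyte and macrophage markers measured summed to 96.2 FPKM in the KO library against 141 FPKM in the transplanted WT library. They summed to 138 FPKM in the Tg library against 101 FPKM in the steady-state WT library. Cd14 was at 0 in the KO library and Fcgr1 at 0 in the Tg and steady-state WT libraries. Most of each steady-state sum was Ly86 alone, at 124 FPKM in the Tg library and 94.6 FPKM in the steady-state WT library. Only 7 of the 10 reached 1 FPKM in either transplanted library and 5 in either steady-state library, so these sums do not measure macrophage content. The neutrophil sum was higher in Tg than in transplanted WT while the HSP70 pair was higher in transplanted WT, at 59.6 FPKM, than in Tg, at 24.8 FPKM.

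The 23 immediate early genes, which many cells switch on within minutes of a stimulus, summed to 1622 FPKM in the KO library against 3277 FPKM in the transplanted WT library (Atf3 and Cyr61 at 0 in the KO library), and to 2014 FPKM in the Tg library against 3125 FPKM in the steady-state WT library. They shared the direction of the HSP70 pair in KO, where 13 of 20 tested were 2-fold lower at a median of -1.16. In Tg they did not, at a median of -0.46 with 1 gene 2-fold higher and 1 lower. In transplanted against steady-state WT they shared it again, with 16 of 20 higher, 3 of them 2-fold, at a median of 0.39. Plasma cell markers summed to 107 FPKM in the KO library against 114 FPKM in the transplanted WT library, and to 319 FPKM in the Tg library against 447 FPKM in the steady-state WT library. Most of each steady-state sum was Igj, at 204 FPKM in the Tg library and 306 FPKM in the steady-state WT library. By gene, 4 of 5 tested were lower in KO, 1 of them 2-fold, and 7 of 7 were lower in Tg, 0 of them 2-fold. In transplanted against steady-state WT 7 of 7 were lower, 4 of them 2-fold. The 4 erythroid markers that reached 1 FPKM in any library summed to 14.5 FPKM in the KO library against 9.36 FPKM in the transplanted WT library, and to 6.37 FPKM in the Tg library against 53.9 FPKM in the steady-state WT library. All 4 were 2-fold lower in Tg, and 3 of 4 were 2-fold lower in transplanted than in steady-state WT, while the HSP70 pair was higher in both comparisons. The part of these cells and genes in the differences of Hspa1a, Hspa1b and Dnajb9 was not tested.

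**Figure D4:**
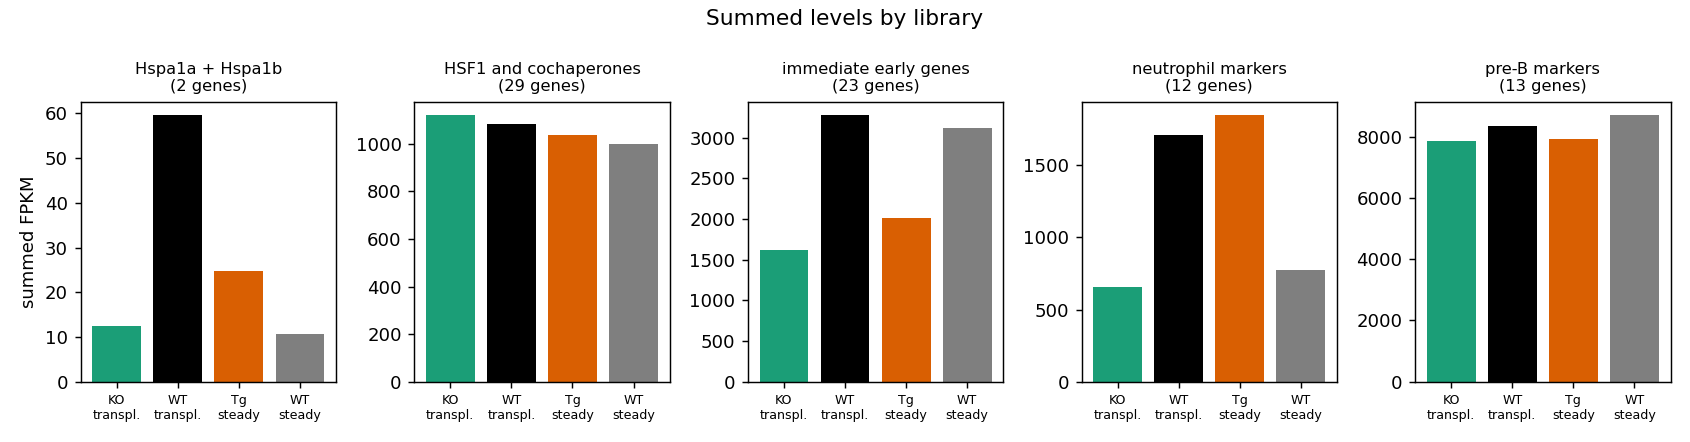
Summed FPKM in each library (linear axes from 0, 1 library a group) of Hspa1a with Hspa1b and of 4 gene lists. The HSP70 pair and the neutrophil markers are both low in the KO and steady-state WT libraries, at 12.5 and 10.7 FPKM and at 657 and 772 FPKM, while the cochaperone list lies between 997 and 1120 FPKM.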

How the data were processed

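RNA-seq of pre-B cells gave 4 libraries, 1 in each group. A miRNeasy kit (total RNA) and a stranded mRNA TruSeq kit were used, per the labels' protocols. By the submitters' processing notes, TopHat2 2.0.13, Bowtie2 2.2.3, SAMtools 0.1.19, Cufflinks 2.2.1 and build mm10 were used. Settings, annotation and any scaling between libraries were not given in the sources used here. Deposited values are read as FPKM made by the authors, although the headers name no unit. Cufflinks divides reads between near-identical or overlapping genes. Members such as Dnajb14, Dnajc25, Hsp90b1, Hspa8 and Hspa14 share exon bases with other genes on the same strand, which a stranded kit does not separate.

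Differences were taken as log2(FPKM + 1) over genes that reach 1 FPKM in either library, and genes were counted at 2-fold, a difference of 1, which understates low genes. Ratios are of plain FPKM. Depth was estimated from the steps that whole reads leave in low FPKM values of 2341 genes with a single transcript, with 210 nt taken off each length. Of those values 65.8% to 69.1% came out within 0.1 of a whole read. Estimated reads give the 95% exact Clopper-Pearson intervals, which hold counting error alone, because PCR reads that carry no molecular identifier are not independent molecules. With 1 library a group no test was run. The 2-fold call was tested on simulated reads that carried counting error alone. That simulation held no variation between animals or libraries. Its planted changes were larger than 2-fold and left out the lowest genes, so it does not check calls such as that of Hspb1.

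The members and lists were chosen with earlier results of these data known. The rule named members past 2-fold in any comparison, the 3 highest of each compartment and the main HSP70, HSP90, HSP60 and HSP40 genes, plus the 2 highest and 2 lowest genes of each other list. Dnajb4, Dnajb9, Dnajb13, Dnajb14, Dnajc9, Dnajc13, Dnajc15, Hspa2, Hspa14 and Bag3 were chosen after their values were seen. Coordinates came from GENCODE M21 (GRCm38) and upstream sequences from RefSeq (GRCm38.p6), where 50 of 61 members matched by symbol. Planned protein features were not analysed here, and 1 listed marker is not reported here. Python 3.11.15, numpy 2.4.6, pandas 2.3.3 and scipy 1.17.1 were used.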

Additional observations from a re-analysis of the deposited data

How the results depend on the processing

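No paired analysis was possible because each group has 1 library. For the same reason no replicate could be left out. With a pseudocount of 0.1, all genes at least 2-fold higher and lower numbered 275 and 159 for Tg, 154 and 267 for KO and 346 and 158 for transplanted WT, and with a pseudocount of 5 they numbered 46 and 30, 18 and 51, and 65 and 27. With a pseudocount of 0.1, 1 member was 2-fold lower in Tg, and with 5, 0 members were 2-fold higher in Tg, as also after rescaling to the same FPKM sum. A filter of 5 FPKM left 69 genes higher and 44 lower in Tg, 80 lower in KO and 41 lower in transplanted WT. Rescaling to the same sum gave 117 genes higher in KO and member medians of -0.12 in Tg and 0.080 in KO, where it moved the median of all genes to -0.13, 0.06 and, for transplanted WT, -0.12. With Hspa1a and Hspa1b summed, 1 member was 2-fold higher in Tg and 1 in transplanted WT. For the single members named by rule, 21 of 66 differences left their counting interval after rescaling to the same sum, 2 with a pseudocount of 0.1 and 5 with one of 5. The other scalings, by the median of gene ratios or without the 100 highest genes, moved none. No result past 2-fold reversed. At a few reads a gene, as for Hspb1, depth limits every ratio.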
